A study of Caenorhabditis elegans with 2 samples.

Results

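The let-7 family of C. elegans microRNAs was examined as a possible set of DAF-12 binding locations in fourth-stage (L4) larvae. The 7 genes of the family, let-7, mir-241, mir-48, mir-84, mir-793, mir-794 and mir-795, were taken by name from 261 microRNA genes among 46926 annotated genes. Regions enriched after immunoprecipitation of DAF-12 were assigned to a gene by their summit, the single base marked for each region in its list. The summit had to lie within 5000 bp of the gene's annotated hairpin. All 7 genes were found in the annotation, where let-7 stands under the miRBase number MI0000001. The genes occupy 5 loci, because mir-48 and mir-241 lie 1678 bp apart on chromosome V and mir-794 and mir-795 lie 1032 bp apart on chromosome I. Each pair shares all of its regions, so 7 genes give 5 separate observations at most.

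The study has 1 group of 2 biological replicates. Both are whole L4 worms, males and females pooled, of strain OP222, which carries the unc-119(ed3) III mutation and the wgIs222 insertion of eGFP-tagged daf-12, and their age is labelled as unknown. The lists therefore describe a tagged transgene product in an unc-119 mutant background, summed over all tissues, and libraries without the tag were not analysed here, so no contrast between conditions was possible. The pooled list of regions called on both replicates holds 30000 regions, the lists of replicates 1 and 2 hold 30000 and 23934, and a list thresholded for reproducibility holds 48, of which 21 are nuclear. Signal is the authors' own enrichment value on a scale that was not stated, and rank 1 is the largest signal of a list. A rank gives a place within its own list. Ranks of different lists are set side by side as descriptions and show no change, since the lists differ in length, and the depth of each library is unknown. At a q-value below 0.05 stood 1709 pooled regions (5.70%), 5020 regions of replicate 1 (16.7%) and 14271 of replicate 2 (59.6%). The same q-value therefore marks very different shares of the 3 lists.

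DAF-12 is a nuclear receptor for steroid hormones, the dafachronic acids, and links the choice between reproductive growth and dauer arrest to developmental timing. In the hormone-bound state it is known to raise transcription of mir-84 and mir-241, and without hormone, together with its corepressor DIN-1, it is known to repress let-7 family members. Mature let-7 represses lin-41 and so permits the larval to adult switch, whereas mir-48, mir-84 and mir-241 act together on hbl-1 at an earlier larval switch.

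The mature sequences show what makes these genes a family, a shared seed (bases 2 to 8, in capitals), which is the part of a microRNA that pairs with its targets. They are given 5′ to 3′ from the RefSeq annotation of the WBcel235 assembly.
let-7: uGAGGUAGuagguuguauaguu
mir-48: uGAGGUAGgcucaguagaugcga
mir-241: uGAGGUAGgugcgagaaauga
mir-84: uGAGGUAGuauguaauauuguaga
mir-793: uGAGGUAUcuuaguuagacaga
The first 4 share the seed GAGGUAG, and mir-793 has GAGGUAU, which differs at base 8. Outside the seed the members diverge. Identity was counted over the whole mature sequence from the 5′ end without gaps, with the seed and first base included. On that count mir-84 had the same base as let-7 at 17 of 22 positions, mir-241 at 12 of 21, mir-48 at 9 of 22 and mir-793 at 8 of 22. In the hairpins of mir-795 and mir-794, whose sequences are not printed here, GAGGUAG was found at positions 16 to 22 of mir-795, and mir-794 held its first 6 bases, GAGGUA, at positions 16 to 21 without the final G.

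Regions with strong signals near the family are shown next. Each stretch is 201 bases centred on the summit, on the plus strand of WBcel235 (ce11), with matches to the hexamers AGTGCA or AGGACA, known as DAF-12 recognition elements, in capitals. A match on the minus strand reads TGCACT or TGTCCT. The first 3 belong to mir-241 and mir-48, in order from mir-241 outward, the next is the strongest let-7 region, and the last is the strongest mir-84 region of replicate 2. The last pair was chosen for display after its values were seen.
mir-241, chrV:14366598-14366798: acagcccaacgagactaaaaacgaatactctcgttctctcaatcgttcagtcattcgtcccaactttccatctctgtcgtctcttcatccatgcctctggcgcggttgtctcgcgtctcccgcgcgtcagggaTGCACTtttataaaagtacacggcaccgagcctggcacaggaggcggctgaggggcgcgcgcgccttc
mir-241, chrV:14366797-14366997: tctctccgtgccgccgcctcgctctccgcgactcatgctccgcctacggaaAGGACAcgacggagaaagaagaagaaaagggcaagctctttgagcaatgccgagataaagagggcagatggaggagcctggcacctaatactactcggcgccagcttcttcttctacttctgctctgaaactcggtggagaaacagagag
mir-241, chrV:14368166-14368366: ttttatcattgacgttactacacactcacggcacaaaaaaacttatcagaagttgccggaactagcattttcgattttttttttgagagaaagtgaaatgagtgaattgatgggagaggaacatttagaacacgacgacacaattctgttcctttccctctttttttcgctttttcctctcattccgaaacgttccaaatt
let-7, chrX:14743498-14743698: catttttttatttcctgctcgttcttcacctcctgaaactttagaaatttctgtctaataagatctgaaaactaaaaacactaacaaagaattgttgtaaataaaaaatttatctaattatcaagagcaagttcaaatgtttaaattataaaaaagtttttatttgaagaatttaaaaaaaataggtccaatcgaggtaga
mir-84, chrX:16024667-16024867: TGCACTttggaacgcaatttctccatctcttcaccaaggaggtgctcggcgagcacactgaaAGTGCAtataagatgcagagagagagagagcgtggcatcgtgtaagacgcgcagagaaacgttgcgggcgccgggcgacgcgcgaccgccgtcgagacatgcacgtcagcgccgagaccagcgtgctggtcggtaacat
The summit windows nearest to mir-241 hold 1 hexamer each, AGTGCA on the minus strand at 14366731 to 14366736 and AGGACA on the plus strand at 14366848 to 14366853. The mir-241 window farther out, and that of let-7, hold none. The mir-84 window holds AGTGCA on the minus strand at its left edge and again on the plus strand, with 56 bp between the matches. G and C make up 56.7% and 55.2% of the inner mir-241 windows and 58.7% of the mir-84 window, against a mean of 33.1% over all nuclear pooled regions, and the part of base composition in these signals was not tested.

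All 7 genes had a pooled region within 5000 bp, which is the rule in this dense list and not a feature of the family, since 94.5% of the 254 other microRNA genes and 96.7% of all genes had one too. The members divided on stricter criteria. A region past a q-value of 0.05 lay near let-7, mir-48 and mir-241, which is 3 of 7 genes and 2 of 5 loci, beside 18.5% of other microRNA genes and 18.8% of all genes. The same 3 genes had a region among the first 1000 of the pooled list, beside 10.6% and 11.3%. Regions of both replicates that overlapped by at least 1 bp lay near 4 genes at 3 loci, mir-48, mir-241, mir-84 and mir-793, beside 42.9% of other microRNA genes and 48% of all genes. With overlap of 50% of both regions, or with summits within 100 bp, the count fell to 2 genes. Near the family all regions of a list had the same width and their summits in the middle. Overlap and summit distance are therefore not separate measures of agreement. At mir-84 and mir-793 the shared stretches were 24 to 55 bp and the summits 227 to 258 bp apart. A peak of the thresholded list lay near mir-48 and mir-241, beside 0 of the 254 other microRNA genes (0%) and 131 of all genes (0.279%). The count over all genes includes mitochondrial genes, and only 21 of the 48 peaks of that list are nuclear. That list was itself made from both replicates, so it is no independent measure of their agreement.

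**Figure D1:**
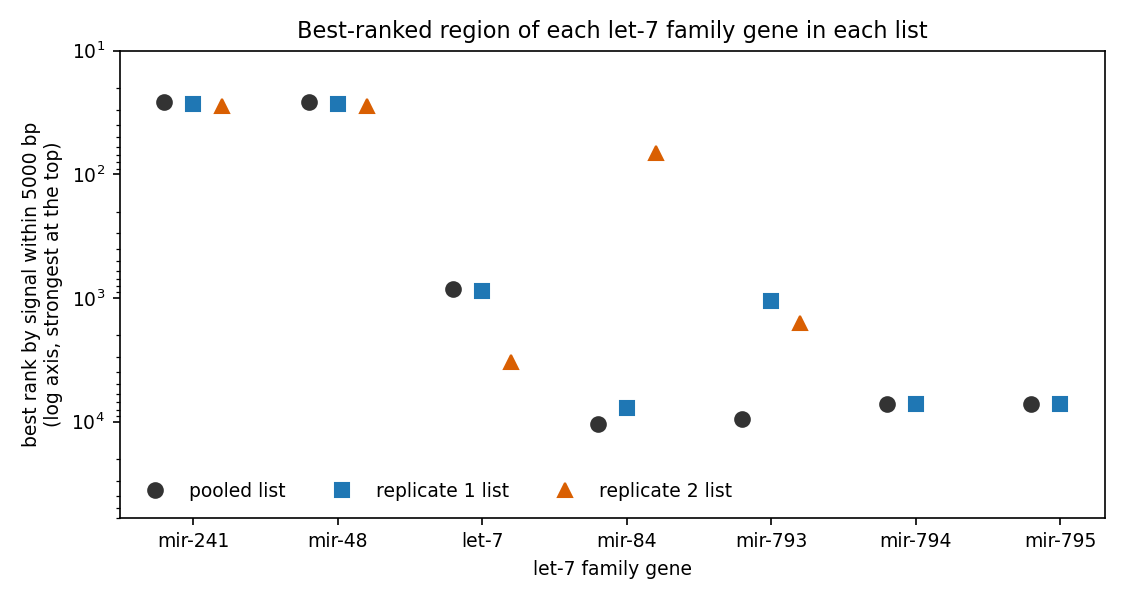
Rank, by signal, of the best region within 5000 bp of each let-7 family gene in the pooled list and in the lists of replicates 1 and 2, on a log axis with the strongest at the top. Ranks at mir-241 and mir-48 were 26, 27 and 28, and mir-794 and mir-795 have no point for replicate 2 because no region of it lay within 5000 bp.

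The family is thus uneven, as the plot of best ranks shows. The best pooled rank was 26 at mir-241 and mir-48, 841 at let-7, 7248 at mir-794 and mir-795, 9587 at mir-793 and 10527 at mir-84. Its median over the 7 genes was 7248, beside 5292.5 over the 240 other microRNA genes with a region and 5221 over all genes with one. That order turned in the replicate lists. In replicate 1 the family median was 1053, beside 5622 and 5286 for the same sets, and in replicate 2 it was 67 over the 5 genes with a region, beside 6068 and 5084. The median rests on 5 loci at most, and in replicate 2 it is the mir-84 value. There it depends on counting 1 shared region for 2 genes, since mir-241 and mir-48 both have rank 28. The remaining ranks were 1600 at mir-793 and 3265 at let-7. The number of pooled regions per gene had a median of 3 in the family (range 2 to 12), 3 in other microRNA genes (0 to 9) and 4 in all genes (0 to 39). Annotated genes are longer than hairpins (median 195.5 bp against 94 bp for the other microRNA genes), which widens their windows slightly at the median. For long genes the window is far wider, as at daf-12, which spans 30968 bp and has 39 pooled regions.

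The mir-241 and mir-48 locus held the strongest DAF-12 signal of the family in all 3 lists. Both hairpins lie on the minus strand, mir-241 at chrV:14366188-14366283 (96 bp) and mir-48 at chrV:14364412-14364509 (98 bp), with mir-241 upstream. In the pooled list 12 regions lay within 5000 bp of either gene, more than at any of the other 254 microRNA genes, and 215 of all annotated genes (0.458%) had 12 or more. No other microRNA gene had a better best rank in the pooled list or in either replicate.

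The summit closest to mir-241 on its upstream side had a signal of 39.49 in the pooled list, 21.96 in replicate 1 and 15.40 in replicate 2, at 415, 368 and 444 bp from the hairpin. Its ranks were 26, 27 and 28, and it was second among nuclear regions of the pooled list. The replicates' regions there overlapped by 206 bp with summits 76 bp apart, and the summit falls within F56A12.8, annotated as a noncoding RNA, in an exon. Only mitochondrial regions and 1 nuclear region had more pooled signal.

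An adjoining pooled region, 614 bp upstream of mir-241, had a signal of 15.25 (rank 122, q = 0.0206). Replicate 1 had a region of signal 16.97 (rank 34) there. It overlapped 2 regions of replicate 2, the rank 28 region of the first summit over 148 bp, with summits 134 bp apart, and one of signal 2.36 and rank 18689 over 197 bp, with summits 85 bp apart. Farther upstream, 1983 bp from mir-241, the pooled signal was 25.05, with 17.54 in replicate 1 (rank 32) and 5.70 in replicate 2 (rank 1105). The outermost strong summit, 2581 bp upstream, had 21.98 in the pooled list, 16.76 in replicate 1 (rank 36) and 10.12 in replicate 2 (rank 43). Replicates thus placed 2 summits, the first and the outermost, among their top 50 regions, and the summit at 1983 bp was ranked that high by replicate 1 alone. The 3 thresholded peaks are the first, the one at 1983 bp and the outermost, and their summits span 2166 bp.

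**Figure D2:**
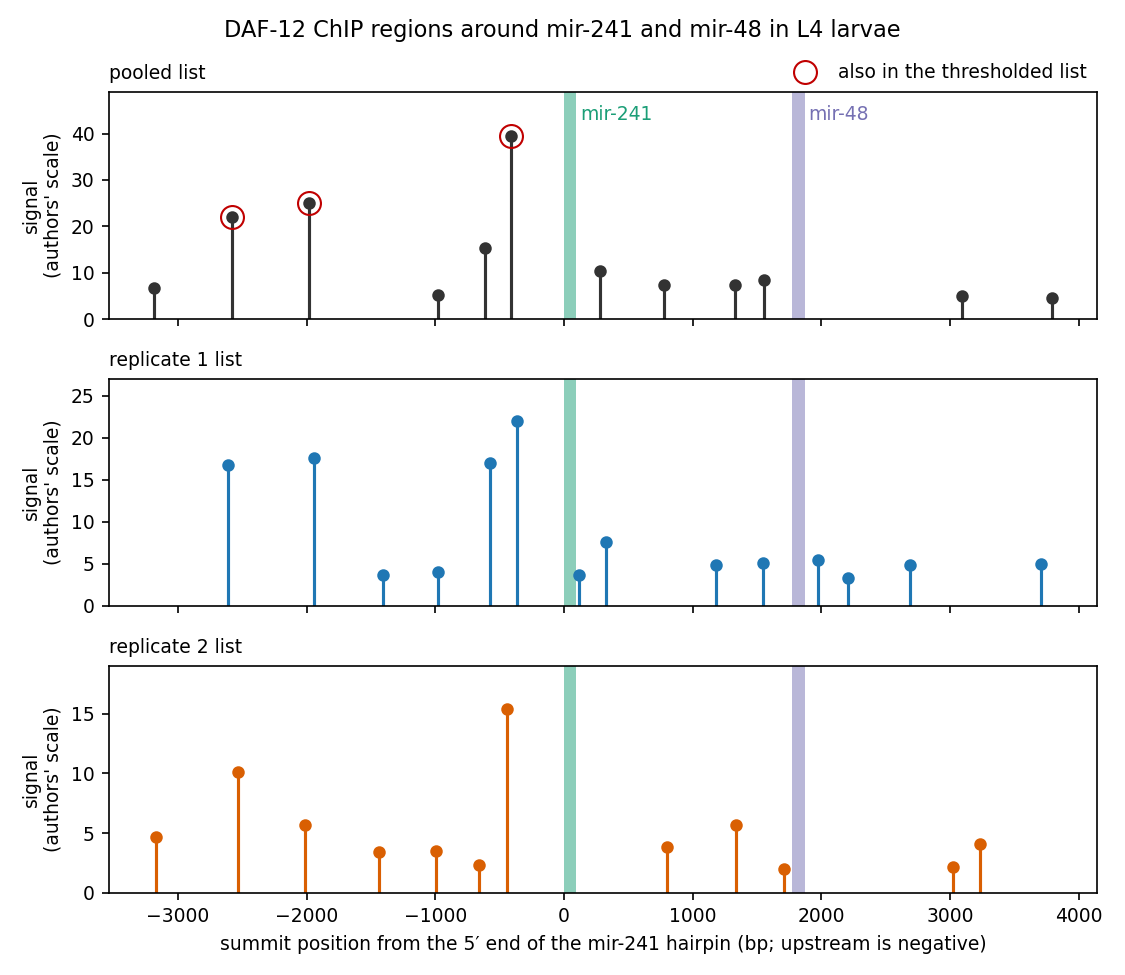
Signal of each region, on the authors' scale, against summit position from the 5′ end of the mir-241 hairpin, with upstream negative, in the pooled list (12 regions), replicate 1 (14) and replicate 2 (12); shaded bars are the hairpins, circles mark thresholded peaks, and the vertical scale differs between panels. The tall summits stand upstream of mir-241, and those between the hairpins reach 10.4 in the pooled list.

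Between the hairpins and downstream of mir-48 the signal was lower, as the locus plot shows. A pooled region 188 bp downstream of mir-241 had a signal of 10.39 (rank 1368, q = 0.0442) and an overlapping region in replicate 1 (rank 1773, signal 7.66) but none in replicate 2. Directly upstream of mir-48, at 216 bp, the pooled signal was 8.42 (rank 3948). That region overlapped a replicate 1 region of rank 9045 and 2 replicate 2 regions. The replicate 2 regions had rank 1156 and rank 23517 (signal 2.02, summit 64 bp upstream of mir-48). The next pooled region, 448 bp upstream of mir-48, had 7.36 (rank 6867). It overlapped replicate 1 regions of ranks 9045 and 10358 and the replicate 2 region of rank 1156. The summits of the regions ranked 9045 and 1156 were 209 bp apart, and those of the regions ranked 10358 and 1156 were 160 bp apart. The summit of the rank 1156 region lay 435 bp upstream of mir-48, nearer to the pooled summit at 448 bp. Apart from the pooled regions named, 5 pooled regions of the locus had signals from 4.54 to 7.44. For mir-48, 10 of the 12 pooled regions lay upstream and 2 downstream, and for mir-241 the sides held 6 each. The strong summits are thus upstream of both genes and cannot be assigned to one of them by position. Their nearest annotated starts are those of other genes. F56A12.8 is nearest to the first summit (87 bp) and the adjoining one (286 bp). F56A12.10, also a noncoding RNA, is nearest to the outer thresholded summits, at -1277 and -679 bp along its strand. Which gene the signal belongs to was not tested.

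At let-7 the data depend on replicate 1. The hairpin lies at chrX:14744173-14744271 on the minus strand, within an annotated primary transcript of 1732 bp. The strongest pooled region, at chrX:14743446-14743749 with its summit 575 bp downstream of the hairpin, had a signal of 11.29 (rank 841, q = 0.0244). The summit, at 14743598, is just inside the 3′ end of the primary transcript, which spans 14743590 to 14745321. Its nearest annotated start is that of the protein-coding gene C05G5.7, at 182 bp. Replicate 1 holds a region of the same coordinates with a signal of 8.73 (rank 878, q = 0.0074), and replicate 2 holds none that overlaps it. A pooled region 2249 bp upstream had 8.89 (rank 3018), and its nearest annotated start is that of wshc-2. A region 521 bp upstream of the hairpin had 4.35 (rank 27373), and both of these upstream regions contain AGTGCA within 100 bp of the summit.

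Replicate 2 placed its 3 let-7 regions elsewhere. Their ranks were 3265, 2731 bp downstream (signal 4.52), 16097, 2177 bp downstream (2.57), and 3427, 4363 bp upstream in a coding exon of wshc-2 (4.47). None overlapped a region of replicate 1 within the window, so let-7, one of the 3 genes past the q-value of 0.05, was not among the 4 genes with regions of both replicates. Of the other microRNA genes, 24 had a better best rank than let-7 in the pooled list, 28 in replicate 1 and 80 in replicate 2.

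At mir-84 the replicates differed widely. The hairpin lies at chrX:16022404-16022478 on the minus strand (75 bp). In replicate 2 an intergenic region at chrX:16024637-16024896, 2289 bp upstream, had a signal of 8.92 and rank 67 (q = 0.0036). Only 1 other microRNA gene outside the family had a better rank in that list, whereas 149 did in replicate 1 and 173 in the pooled list. The overlapping replicate 1 region had 5.10 and rank 8882 (q = 0.131), shared 45 bp with it, and had its summit 237 bp away. The pooled region there had 5.47 and rank 16972 (q = 0.576). The place lay in the first 0.280% of the replicate 2 list and at 56.6% of the pooled list. The nearest annotated start is that of mir-84 itself.

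The other mir-84 regions were weak. The best pooled one, 2034 bp downstream in an intron of nhx-1, had a signal of 6.49 (rank 10527) and replicate ranks of 7794 and 5680, over a shared 24 bp. A pooled region 496 bp upstream had 4.72 (rank 23525), overlapped replicate 2 alone (rank 16459) and carries AGTGCA on the plus strand immediately followed by AGTGCA on the minus strand. The lowest, 4214 bp downstream in the same gene, had 4.32 (rank 27706). A replicate 2 region of rank 22362 had its summit on the hairpin itself (signal 2.10).

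**Figure D3:**
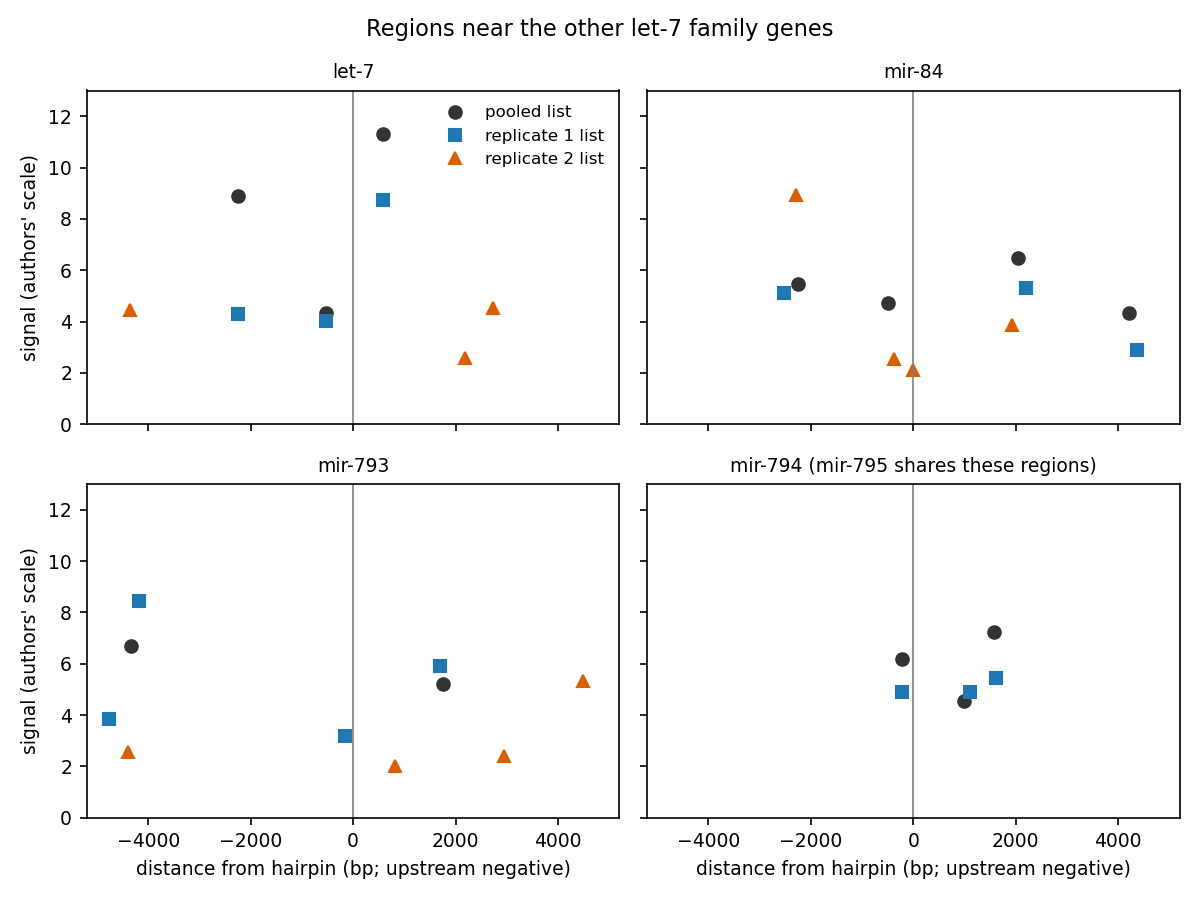
Signal of each region on the authors' scale against its distance from the hairpin, upstream negative, at let-7, mir-84, mir-793 and mir-794, for the pooled list and both replicates. The replicate points rarely coincide, the highest replicate 2 point (8.92) is upstream of mir-84, and no replicate 2 point appears at mir-794.

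The members with less known roles, mir-793, mir-794 and mir-795, had no pooled region past a q-value of 0.05. Near mir-793 (chrX:13857962-13858053, plus strand) 2 pooled regions had signals of 6.69 (rank 9587), 4333 bp upstream in an intron of mct-3, and 5.22 (rank 18960), 1759 bp downstream in an intron of M03B6.4. The first overlaps a replicate 1 region of rank 1053 (signal 8.45, q = 0.0071) and a replicate 2 region of rank 15941 (signal 2.58), which share 55 bp. The best replicate 2 region, rank 1600 with a signal of 5.32, lay on the other side, 4480 bp downstream in a coding exon of M03B6.3. As at mir-84, the best regions of the replicates thus lay on opposite sides of the hairpin.

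At mir-794 and mir-795 (chromosome I, 12595690 to 12595773 and 12594569 to 12594657, plus strand) the 3 pooled regions had signals of 7.25, 6.18 and 4.55 (ranks 7248, 12171 and 25199). The first lay in an intron of the pseudogene T07D10.8, 1572 bp downstream of mir-794, and the second lay 224 bp upstream of mir-794 and 809 bp downstream of mir-795. Each overlapped a region of replicate 1, with ranks 7170, 9960 and 10071, and no region of replicate 2 had its summit within 5000 bp of either gene. In replicate 1 137 other microRNA genes had a better best rank.

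**Figure D4:**
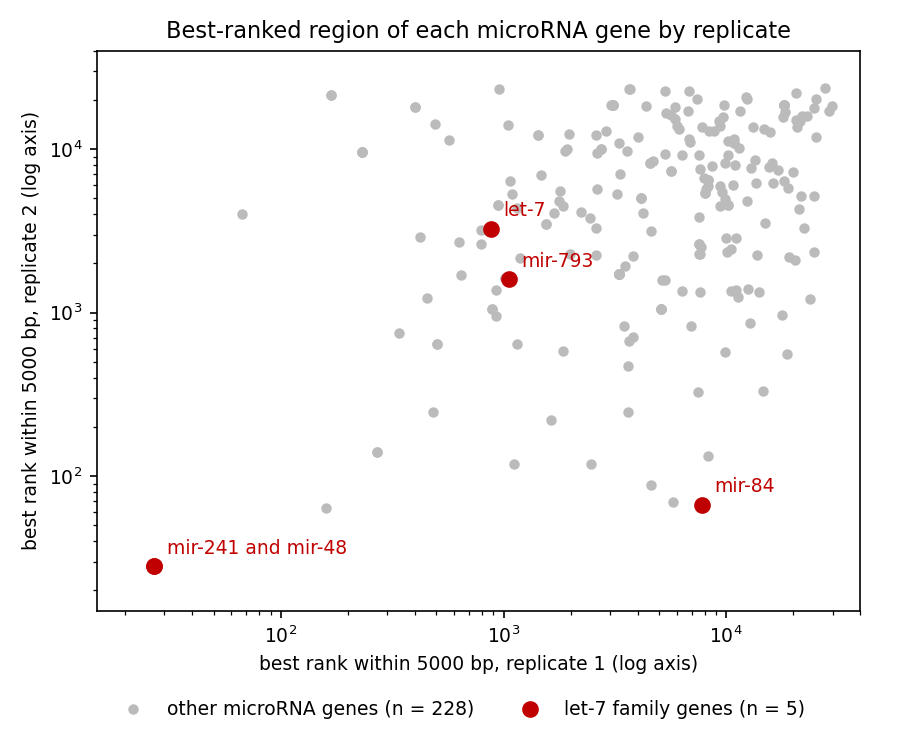
Best rank within 5000 bp in replicate 1 against replicate 2, on log axes, for 228 other microRNA genes (grey) and the 5 let-7 family genes with a region in both (red). The mir-241 and mir-48 point (27 and 28) is at the lower left, and mir-84 is low on the replicate 2 axis (67) but not on that of replicate 1 (7794).

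Counted once each, 24 pooled regions lay near the family, 12 at mir-241 and mir-48 and 12 at the other loci. Of these, 10 (41.7%) overlapped a region of each replicate, beside 5328 of all 30000 pooled regions (17.8%), and 7 of the 10 were at mir-241 and mir-48. Another 10 overlapped replicate 1 alone, 4 replicate 2 alone and 0 neither. The median signal was 6.72, against 5.74 for the whole list, with 15 of 24 above that median and 6 past a q-value of 0.05. Most summits were intergenic (15), 5 were in introns and 0 in coding exons. Regions of a locus are neighbours and not independent, so these shares describe mainly 1 locus.

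A hexamer, AGTGCA or AGGACA on either strand within 100 bp of the summit, was present in 8 of 24 regions (33.3%, exact binomial 95% interval 15.6 to 55.3%, for counting error over regions treated as separate), beside 3334 of 29972 nuclear pooled regions (11.1%). The hexamers were searched separately, and the 10 matches, 9 of AGTGCA and 1 of AGGACA, did not overlap each other. The 8 regions were split evenly, 4 at mir-241 and mir-48 and 4 at let-7 and mir-84. Their pooled ranks were 26, 122, 3948 and 9314 at mir-241 and mir-48, 3018 and 27373 at let-7, and 16972 and 23525 at mir-84. Of the 6 family regions past a q-value of 0.05, only those ranked 26 and 122 held a hexamer. The mean GC content of the family windows was 37.5% against 33.1%, and its part in the share was not tested. Within 50 bp of the summit the share was 25% against 5.46%, and within 150 bp it was 33.3% against 16.5%.

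The plot of replicate ranks shows how mir-241 compares with other microRNA genes. Over the best ranks in the 3 lists, on a log10 scale, the genes nearest to mir-241 among 217 were mir-1829.2 (ranks 499, 160 and 64 in the pooled list and replicates 1 and 2) and then mir-238 and mir-80, which share their regions (314, 270 and 141). Their distances from mir-241 were 1.54 and 1.63 on that scale, and none of them had a thresholded peak. All 3 genes were placed lower than mir-241 in each list.

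Genes that make or control let-7 family microRNAs, their targets and later genes of the timing pathway, with lin-4, another timing microRNA, were listed as 26 genes. All 26 had a pooled region within 5000 bp. Of these, 10 had one past a q-value of 0.05, beside 18.8% of all genes, and 7 had one among the first 1000, beside 11.3%. Regions of both replicates at the same place lay near 17, beside 48% of all genes. A thresholded peak lay near 1, beside 0.279%, a share that counts mitochondrial genes too. Their median best rank was 2402.5, beside 5221 over all genes. These genes span a median of 6645 bp, far more than a hairpin or the median of 195.5 bp over all genes. Longer spans give wider windows. Their counts and ranks are therefore not on the same footing as those of the family or of all genes, and the part of span was not tested. The gene with a thresholded peak was din-1, the corepressor of DAF-12, with best ranks of 37, 40 and 176 in the pooled list and replicates 1 and 2. At daf-12, the tagged gene itself and a let-7 family target, the ranks were 52, 39 and 33 with 39 pooled regions over a span of 30968 bp. The part of the transgene copies in that signal was not tested.

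Among genes of microRNA biogenesis and silencing, dcr-1, which encodes the Dicer nuclease, had a best pooled rank of 148 (replicates 566 and 4566). The silencing cofactor nhl-2 had 179, with 44 in replicate 1 and 10926 in replicate 2. Of the regulators, lin-42, the worm homolog of Period that limits microRNA transcription, had 218 with 435 and 297 in the replicates. Among targets, the timing regulator lin-14 had 377 (494 and 1000) and let-60, which encodes Ras, had 779 (14890 and 409). The repressor of let-7 maturation lin-28 had 3829 (7313 and 3680), and lin-41, the target through which let-7 acts on the adult switch, had 6066 (3966) but 132 in replicate 2.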

How the data were processed

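DAF-12 ChIP-seq of whole L4 larvae was analysed in 2 biological replicates of 1 group, from the region lists on ce11. Per the labels, the authors deposited a list per replicate, a pooled list and a list thresholded for reproducibility. The aligner and the peak caller were not given in the sources used here. The deposited signal of each region has no stated scale, and the deposited −log10 q-value was converted to q. The ce10 lists were not used. The sequence of 1 mir-241 region is not reported here. Depth is unknown, so no error of a signal can be given.

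Summits were placed on Ensembl release 115 and RefSeq WBcel235, which has the ce11 coordinates, and distances run from summit to hairpin, signed along the gene's strand. Members and gene lists were chosen with earlier results of these data known. All members were named. Of the pathway list, genes with a thresholded peak or a region ranked 1 to 1000 were named, plus lin-28 and lin-41. As genes most like mir-241, the 3 microRNA genes outside the family of smallest distance over log10 best ranks were named. Neighbouring genes were named as such. With 1 group no test between conditions was made. Regions were shared from 1 bp of overlap. The distance, rank and overlap code was tested on simulated data. Alternatives changed the distance, its base, the list, the overlap, the q-value, the hexamer window and the unit (genes or loci). The whole gene span and the loci were added after seeing the data. Python 3.11.15, numpy 2.4.6, pandas 2.3.3, scipy 1.17.1 and matplotlib 3.10.9 were used.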

Additional observations from a re-analysis of the deposited data

How the results depend on the processing

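Of 39 summary values recomputed, 26 stayed within 1.5 times the value reported and 13 moved, and of 26 best ranks of single genes 20 stayed. The presence of mir-241 and mir-48 peaks depended on the list and the distance. In the upper 50% of the thresholded list, most of it mitochondrial, 0 family genes had a peak. Within 2000 bp 1 had, and as loci 1 had. Within 10000 bp the family had 41 pooled regions in place of 24. Agreement between replicates depended on its definition. With 50% overlap of both regions, with summits within 100 bp, or with the first 5000 regions of each list, 2 genes in place of 4 had regions of both, and the pooled regions over both replicates numbered 6, 5 and 4 in place of 10. The cause was not tested.

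With the list of replicate 1 or replicate 2 alone, genes past a q-value of 0.05 numbered 4 to 5, pooled-list regions were replaced by 23 to 27, genes with a region ranged from 5 to 7, genes near as many top regions as the thresholded list holds were 2 in both, and the median best rank ranged from 67 to 1053, in replicate 2 over 5 genes. Among nuclear regions alone the best rank of mir-241 and mir-48 was 2. No paired analysis was possible because the series holds a single group. With unknown depth and 2 replicates, small differences in signal or rank cannot be read.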
